A study of Glycine max with 12 samples.

Results

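The set described here holds 60 of the 57147 gene IDs counted in soybean pods: transcripts that were higher in each of the 6 libraries from pods kept at high temperature than in any of the 6 libraries from pods kept at the lower temperature, at both water supplies. The members were chosen by measured values on the CPM scale, in which a count is divided by its library total and multiplied by 1000000. The lowest heated library had to lie at least 2 times above the highest unheated library, the heated mean had to reach 5 CPM, the control mean had to stay under 500 CPM, and the mean under combined stress had to stay under 2 times the mean under heat stress. Temperature differences of the members were therefore fixed by the choice and are given as descriptions with no test. The rule set no condition between water deficit and control, although it limited the control mean and took all unheated libraries into the gap, and it limited the effect of water supply at the higher temperature only from above.

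All pods came from Glycine max, cultivar Magellan, on plants inoculated with Bradyrhizobium japonicum, a nodule-forming soil bacterium, and grown in days of 12 h of light, at 28 °C in the light and 24 °C in the dark, for 16 to 18 days after transplanting until flowering began. Plants under combined stress then received 30% of the transpirable water in a chamber held at 38 °C in the light and 28 °C in the dark, and heat-stressed plants received 100% at those temperatures. Water-deficit plants received 30% and control plants 100%, both in chambers that stayed at 28 °C and 24 °C. Each condition had its own growth chamber, so a condition and its chamber cannot be told apart. Each condition gave 3 RNA sequencing libraries, and each library was made from 10 to 15 pods pooled over 8 to 10 plants.

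High temperature unfolds proteins in plant cells and activates heat stress transcription factors, which bind heat shock elements in promoters and raise the transcripts of chaperones, among them small heat shock proteins that hold unfolded proteins in a soluble state. Many of these transcripts are nearly absent at moderate temperature, and soybean carries many of their genes in families and in duplicated genome segments. A water deficit closes stomata and lowers cooling by transpiration, and the series concerns transpiration of pods under the combination of both stresses. The deposited IDs carried no names and matched none in the gene table used here, so no member is given a family or a role, and no sequence is shown.

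Library totals ranged from 17310023 to 26591115 counts, and 3 counts corresponded to between 0.113 and 0.173 CPM. These floors cover counting error only. Water deficit replicate 2 stood apart in its low counts: 11.02% of the 38737 genes tested had 0 counts in it, against 1.33% to 5% in the other libraries. Among genes with at least 10 counts in both other libraries of their group, 4.75% had 0 counts in that library, including 8 of 46 members (17.4%). The label of the tissue was not checked against marker genes, since the IDs carried no names. In pooled pods, fewer cells of a type and less RNA per cell cannot be told apart.

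Together the 60 members made up a far larger part of the transcripts in heated pods, as the rule required. Their summed level was 12935, 13212 and 12378 CPM in the 3 combined-stress libraries and 16724, 10838 and 11834 CPM in the heat-stress libraries. It was 1498, 1107 and 1343 CPM in the water-deficit libraries and 1903, 1579 and 1369 CPM in the control libraries. The sums averaged 12842 ± 424 CPM under combined stress, 13132 ± 3150 CPM under heat stress, 1316 ± 197 CPM under water deficit and 1617 ± 269 CPM in control (SD, n = 3 each). A few members carried most of this: the member with the most counts held 24.5% and the 5 with the most held 55.2% of the members' counts in heated pods.

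**Figure D1:**
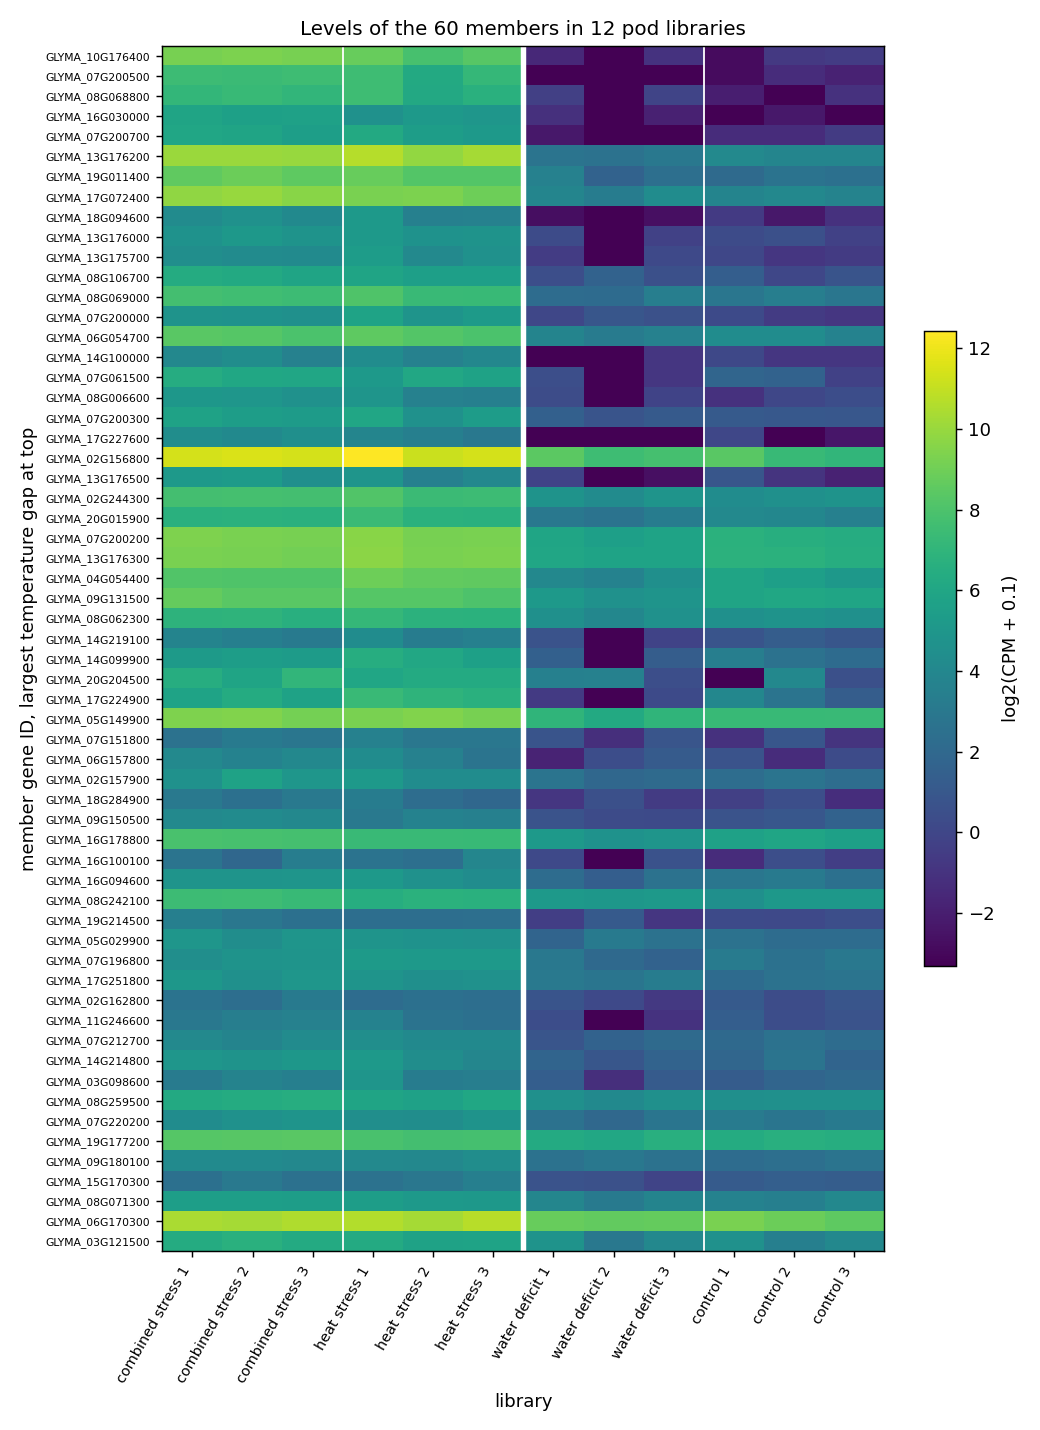
Level of each of the 60 members, as log2(CPM + 0.1) in colour, in each of the 12 libraries (columns: combined stress, heat stress, water deficit, control, 3 libraries each), with members ordered down the page by the ratio of their lowest heated to their highest unheated library. The heated columns on the left are brighter for every member by the rule of choice, and the darkest cells, where a member had 0 counts, are most frequent in water deficit replicate 2, which had 18 of them.

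The members differed widely in how much transcript the unheated pods already held. In 8 members no unheated library reached 1 CPM, in 28 the highest unheated library lay between 1 and 10 CPM, and in 24 it was at 10 CPM or more. The fold of mean CPM under heat stress over control ran from 2.48 to 802 with a median of 8.73, and that of combined stress over water deficit ran from 2.73 to 2192 with a median of 11.9. In these folds each library under 3 counts was set at 3 counts. The fold at low water was larger than that at full water in 46 of the 60 members. The rule used both temperature differences, so this count is a description, and the share over all genes was not taken. Water deficit replicate 2, with its many zeros, entered the fold at low water.

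The 8 members that were nearly silent in unheated pods reached mean heated levels between 15.8 and 462 CPM. GLYMA_10G176400 had the widest gap of all members, with 581, 637 and 575 CPM in combined-stress libraries and 430, 232 and 319 CPM in heat-stress libraries. Its unheated libraries held 0.25, 0 and 0.4 CPM under water deficit and 0.0376, 0.511 and 0.599 CPM in control. Its lowest heated library thus lay 387 times above its highest unheated library, and its combined-stress libraries lay above all of its heat-stress libraries.

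GLYMA_07G200500 had 175, 169 and 187 CPM under combined stress and 185, 76.7 and 145 CPM under heat stress. It had 0 counts in the 3 water-deficit libraries and 0.0376, 0.306 and 0.184 CPM in the control libraries. Combined stress was therefore at least 1084-fold higher than water deficit, with each water-deficit library set at 3 counts, and heat stress replicate 2 was its lowest heated library.

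GLYMA_08G068800 had 139, 159 and 130 CPM under combined stress and 183, 71.7 and 103 CPM under heat stress, against 0.701, 0 and 0.856 CPM under water deficit and 0.150, 0 and 0.369 CPM in control. GLYMA_07G200700 had 64.8, 58.1 and 45.1 CPM under combined stress and 74.6, 43.3 and 37.1 CPM under heat stress, against 0.1001, 0 and 0 CPM under water deficit and 0.301, 0.306 and 0.553 CPM in control. In both, the libraries of combined and heat stress overlapped, and heat stress replicate 1 was the highest of the 6 heated libraries.

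GLYMA_16G030000 lay, like GLYMA_10G176400, higher under combined stress than under heat stress in every library. It had 59.0, 49.8 and 51.5 CPM under combined stress and 24.8, 36.2 and 30.5 CPM under heat stress, against 0.350, 0 and 0.171 CPM under water deficit and 0, 0.102 and 0 CPM in control. GLYMA_18G094600 had 19.1, 25.2 and 17.6 CPM under combined stress and 34.7, 11.5 and 12.2 CPM under heat stress, against 0.0501, 0 and 0.0571 CPM under water deficit and 0.526, 0.102 and 0.369 CPM in control. Its coefficient of variation among heat-stress libraries, 0.678, was the highest of the 60 members, through replicate 1. The remaining members of this kind, GLYMA_14G100000 and GLYMA_17G227600, reached up to 20.7 and 22.8 CPM in heated pods, and GLYMA_17G227600 had 0 counts in every water-deficit library.

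The other end of the set held members that were already abundant at the lower temperature. GLYMA_02G156800 had the highest CPM of the members, a scale that is not per length, with 2680, 2963 and 2757 CPM under combined stress and 5501, 2319 and 2722 CPM under heat stress, against 353, 189 and 223 CPM under water deficit and 332, 156 and 131 CPM in control. Heat stress replicate 1 alone held more than 2 times the CPM of either other heat library, and the heat mean of 3514 ± 1733 CPM (SD, n = 3) rests on it. GLYMA_06G170300 had 1363, 1272 and 1492 CPM under combined stress and 1553, 1276 and 1686 CPM under heat stress, against 429, 395 and 413 CPM under water deficit and 624, 467 and 372 CPM in control. It lay close to the limit of the rule, since its lowest heated library was 2.04 times its highest unheated one.

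GLYMA_05G149900 had 654, 691 and 556 CPM under combined stress and 615, 700 and 586 CPM under heat stress, against 124, 74.8 and 127 CPM under water deficit and 157, 157 and 165 CPM in control. Its heated levels overlapped, whereas each water-deficit library lay below each control library. GLYMA_17G072400 had 906, 1029 and 777 CPM under combined stress and 600, 632 and 491 CPM under heat stress, against 14.3, 9.53 and 20.3 CPM under water deficit and 13.5, 15.9 and 13.0 CPM in control. Its combined-stress libraries lay above its heat-stress libraries without overlap, and its unheated groups overlapped.

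GLYMA_19G011400 had 389, 483 and 365 CPM under combined stress and 432, 300 and 301 CPM under heat stress, against 12.1, 3.03 and 5.20 CPM under water deficit and 4.25, 6.33 and 5.53 CPM in control. GLYMA_13G176000 had 26.2, 34.1 and 26.6 CPM under combined stress and 36.2, 25.8 and 27.1 CPM under heat stress, against 1.10, 0 and 0.742 CPM under water deficit and 1.13, 1.33 and 0.737 CPM in control. In both, the groups of the same temperature overlapped, and the gap between temperatures was 24.8 and 19.4 times.

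Levels of different members were compared as FPKM (fragments scaled by transcript length and by library size), which is a scale per length. On that scale the highest mean over heated libraries was that of GLYMA_13G176200, 1386 FPKM, followed by GLYMA_02G156800 at 1291, GLYMA_07G200200 at 746, GLYMA_13G176300 at 693 and GLYMA_06G170300 at 668 FPKM. The lowest was 0.687 FPKM for GLYMA_02G162800, and the median was 36.5 FPKM. GLYMA_13G176200 and GLYMA_02G156800 could not be ordered beyond their spread: the first had 1238 ± 46.5 FPKM under combined stress and 1535 ± 437 under heat stress, and the second 1134 ± 68.0 and 1448 ± 742 (SD, n = 3 each). The ratio of FPKM to count was not constant for a gene. On the FPKM scale, 59 of the 60 members had no overlap between heated and unheated libraries and 54 kept a gap of 2 times. The members were chosen by the same gap in the same libraries, so these counts are descriptions and no independent check.

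**Figure D2:**
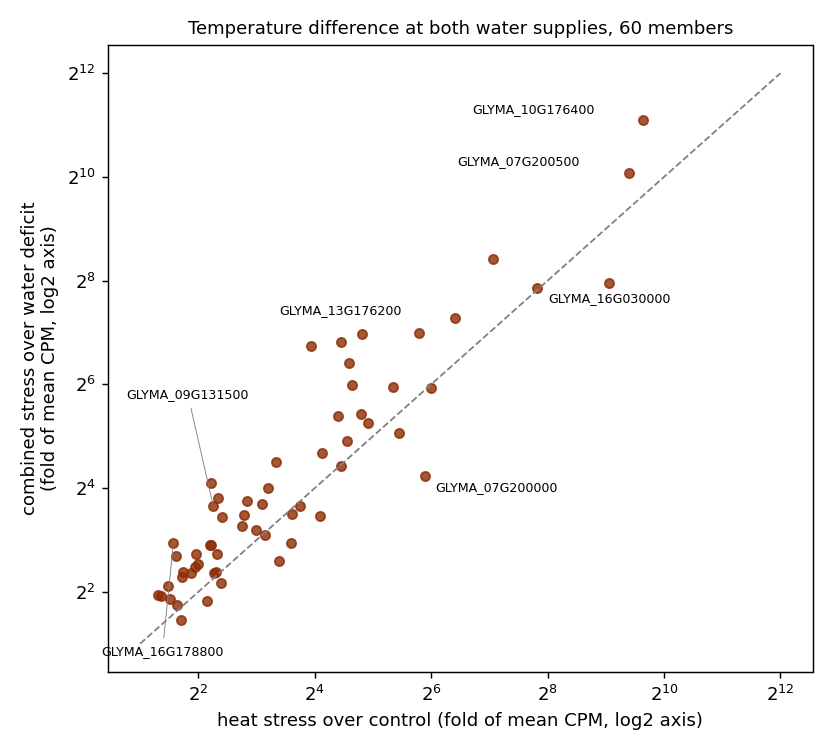
Fold of mean CPM for heat stress over control (horizontal, full water) and for combined stress over water deficit (vertical, low water) for the 60 members, both on log2 axes, with each library under 3 counts set at 3 counts and a dashed line where both are equal. Of the 60 points, 46 lie above the line, a description since the rule used both temperature differences. GLYMA_10G176400 lies farthest up on the right, at 802-fold and 2192-fold.

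Near the limit of the rule the change from member to non-member was small. The members closest to it were GLYMA_03G121500, whose lowest heated library of 53.4 CPM was 2.01 times its highest unheated library of 26.6 CPM, and GLYMA_06G170300, with 1272 and 624 CPM. The genes closest outside it were GLYMA_04G208000, at 3.58 and 1.80 CPM, and GLYMA_03G144500, at 765 and 387 CPM, with ratios of 1.99 and 1.98. In all, 81 genes met the gap and the heated mean, of which 2 were left out by the limit on the control mean and 19 by the limit on combined stress over heat stress. The opposite gap, with every unheated library at least 2 times above every heated one and the same minimum for the unheated mean, was met by 3 genes.

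The members varied more among heat-stress libraries than among combined-stress libraries. The median coefficient of variation of CPM was 0.138 under combined stress and 0.247 under heat stress, and it was larger under heat stress in 44 of 60 members. Over all genes tested the medians were 0.180 and 0.260, and 66.3% varied more under heat stress, so a wider spread under heat stress was general. Heat stress replicate 1 was the highest heat library for 44 of the 60 members, and the share over all genes was not taken. In unheated pods the median coefficient of variation of the members was 0.443 under water deficit, over the 58 members with a count there, and 0.267 in control, against 0.248 and 0.172 over all genes. Water deficit replicate 2 was the lowest or tied for the lowest library of its group for 46 of the 60, and its part in that spread was not tested. The share of all genes for which it was lowest was not taken either.

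The next comparison asked whether low water by itself altered these transcripts in pods at the lower temperature, groups between which the rule set no condition beyond its limit on the control mean. All members passed the filter on low counts, and those near 0 in unheated pods could pass it only through their heated libraries. By edgeR's quasi-likelihood test with Benjamini-Hochberg adjustment over 38737 genes, 4 of 60 members were lower under water deficit than in control at an adjusted p under 0.05, where 0.0904% of all genes were lower, and 0 were higher. At an unadjusted p under 0.05, 23 were lower (2.54% of all genes) and 3 were higher (1.81% of all genes). Of the other tools, DESeq2 called 7 members lower and limma-voom 2, where they called 0.318% and 0.0852% of all genes in either direction, and neither called a member higher.

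The fitted log2 change of water deficit minus control was below 0 for 42 members and above 0 for 18, with a median of -0.55, whereas over all genes the median was -0.004 and 50.5% were below 0. In 18 members every water-deficit library lay below every control library (6.89% of all genes), and in 1, GLYMA_17G251800, every one lay above (4.43% of all genes). That gene, named after its values were seen, had 8.01, 6.90 and 9.88 CPM under water deficit and 4.36, 6.08 and 6.59 CPM in control, and did not pass the adjusted test (log2 change 0.55, SE 0.22, edgeR adjusted p = 1). Some of these members had almost no counts in unheated pods, so the counts were also taken over the 46 members with a mean of at least 1 CPM in the 6 unheated libraries, a limit added after the data were seen. Of these, 18 were lower at an unadjusted p under 0.05 (2.51% of all genes at that level), 14 lay below control in every library (6.84%), and the median was -0.44. All 4 members called were among them. The differences were smaller without water deficit replicate 2. Without that library, 2 members were called (0.0601% of all genes in either direction) and the median was -0.35, where that of all genes was -2.0e-05. At an unadjusted p under 0.05, 14 were lower, and the share of all genes at that level was not taken in that fit. In the overlap comparison, 19 lay below control in every library (12.9% of all genes).

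GLYMA_13G176200, the member with the highest heated FPKM, was among the 4 called. It had 6.51, 6.05 and 7.76 CPM under water deficit, against 17.04, 14.5 and 14.4 CPM in control, and the groups did not overlap (log2 change -1.17, SE 0.18, edgeR adjusted p = 0.0127). In heated pods it had 1088, 1053 and 1017 CPM under combined stress and 1653, 945 and 1289 CPM under heat stress. At the higher temperature the same comparison of water supplies gave overlapping groups and did not pass (log2 change -0.39, SE 0.17, edgeR adjusted p = 0.203).

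GLYMA_04G054400 was lower in water deficit as well. It had 16.5, 12.3 and 22.9 CPM under water deficit, against 59.0, 47.5 and 33.0 CPM in control (log2 change -1.42, SE 0.22, edgeR adjusted p = 0.0163). In heated pods it had 284, 268 and 277 CPM under combined stress and 501, 403 and 379 CPM under heat stress. It lay lower at low water without overlap at both temperatures, but the difference at the higher temperature did not pass the adjusted test (log2 change -0.72, SE 0.22, edgeR adjusted p = 0.0627).

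GLYMA_09G131500 and GLYMA_16G178800 were the other pair called, and in both the water-deficit libraries lay below the control libraries. GLYMA_09G131500 had 34.8, 24.5 and 28.0 CPM under water deficit, against 58.3, 65.8 and 61.3 CPM in control (log2 change -1.07, SE 0.16, edgeR adjusted p = 0.0127). GLYMA_16G178800 had 35.1, 25.7 and 29.2 CPM under water deficit, against 51.4, 60.4 and 49.0 CPM in control (log2 change -0.82, SE 0.15, edgeR adjusted p = 0.0375). Neither gene overlapped between the groups. In heated pods both were higher at low water without overlap, but that difference did not pass the adjusted test in GLYMA_09G131500 (log2 change 0.21, SE 0.16, edgeR adjusted p = 0.510) or in GLYMA_16G178800 (log2 change 0.45, SE 0.15, edgeR adjusted p = 0.0947).

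Each of these calls depended on the libraries included. Without control replicate 2 none of the 4 was called, in a fit where 0.00999% of all genes were called in either direction. The call of GLYMA_13G176200 was also lost without water deficit replicate 2, that of GLYMA_04G054400 without water deficit replicate 1, and that of GLYMA_09G131500 without water deficit replicate 3. The call of GLYMA_16G178800 was lost in 10 of the 12 fits with a library removed, all but those without heat stress replicate 1 or water deficit replicate 1. The direction held in every one of these fits.

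**Figure D3:**
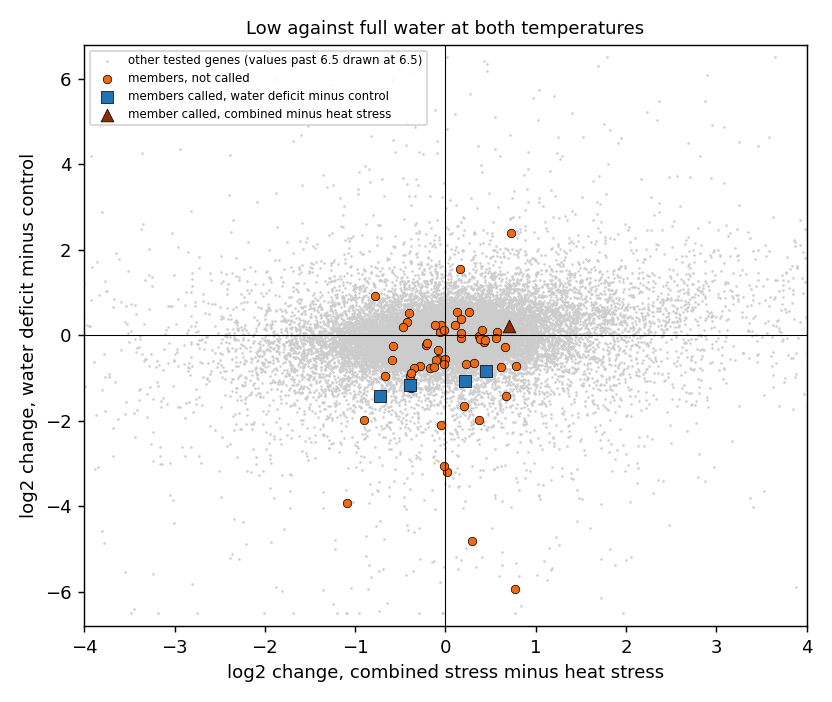
Fitted log2 change for low against full water in heated pods (combined stress minus heat stress, horizontal) and in unheated pods (water deficit minus control, vertical), with the 60 members in colour and the other tested genes in grey. Members spread around 0 on the horizontal axis, with a median of -0.01, and lie mostly below 0 on the vertical axis, with a median of -0.55; squares mark the 4 members called in unheated pods and the triangle the 1 called in heated pods.

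At the higher temperature, low against full water gave 1 call among the 60 members. The rule kept the combined-stress mean under 2 times the heat-stress mean, so larger rises could not occur in the set, and the observed ratio of means ran from 0.503 to 1.83. By edgeR's quasi-likelihood test with Benjamini-Hochberg adjustment, 1 member was higher under combined stress (1.64% of all genes) and 0 were lower (3.61% of all genes), shares that lay near or under the background. At an unadjusted p under 0.05, 7 members were higher and 5 were lower, which is 12 of 60 where 19.2% of all genes passed. DESeq2 called 5 members higher and 1 lower, and limma-voom 4 higher and 2 lower, where they called 8.10% and 5.19% of all genes in either direction.

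The member called was GLYMA_08G242100. It had 177, 184 and 155 CPM under combined stress, against 88.4, 108 and 103 CPM under heat stress, with no overlap (log2 change 0.70, SE 0.16, edgeR adjusted p = 0.0144). In unheated pods it had 36.6, 32.0 and 36.8 CPM under water deficit and 23.4, 33.6 and 34.0 CPM in control, and these groups overlapped. Its call was lost without combined stress replicate 1 (edgeR adjusted p = 0.0567) or replicate 2 (0.0757), and its adjusted p ran from 0.000488 to 0.0757 over 21 alternatives.

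In 12 members every combined-stress library lay above every heat-stress library (15.4% of all genes), and in 5 every one lay below (10.1% of all genes). Besides GLYMA_08G242100, the 12 included GLYMA_10G176400, GLYMA_16G030000 and GLYMA_17G072400, none of which passed the adjusted test (edgeR adjusted p = 0.291, 0.128 and 0.128). The lowest ratios of combined stress to heat stress were 0.503 for GLYMA_17G224900, 0.573 for GLYMA_14G099900 and 0.621 for GLYMA_07G200000, each with no overlap and none past the adjusted test (edgeR adjusted p = 0.401, 0.491 and 0.0946).

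GLYMA_17G224900 had 57.2, 81.3 and 54.7 CPM under combined stress and 160, 120 and 104 CPM under heat stress, against 0.551, 0 and 1.08 CPM under water deficit and 15.9, 6.69 and 2.44 CPM in control. This member, named after its values were seen, was thus lower at low water without overlap at both temperatures. Neither difference passed the adjusted test (edgeR adjusted p = 0.466 in unheated and 0.401 in heated pods). Its 0 under water deficit was in replicate 2, the library with many zeros. Over all members the median log2 change was -0.01, as over all genes, at -0.02, and heat stress replicate 1 weighed on it. Without that library the median was 0.24, where that of all genes was 0.009. In that setting 29 members lay above heat stress in every library (21.8% of all genes), and 2 were called (3.82% of all genes). The count of calls was 0 without combined stress replicate 1 or 2, where 2.37% and 1.37% of all genes were called, and 2 without control replicate 1 or 3 (4.89% and 4.23%). It was 3 without heat stress replicate 2 (5.89%) and 5 without water deficit replicate 2 (6.51%), so the share of all genes called moved with the libraries too.

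**Figure D4:**
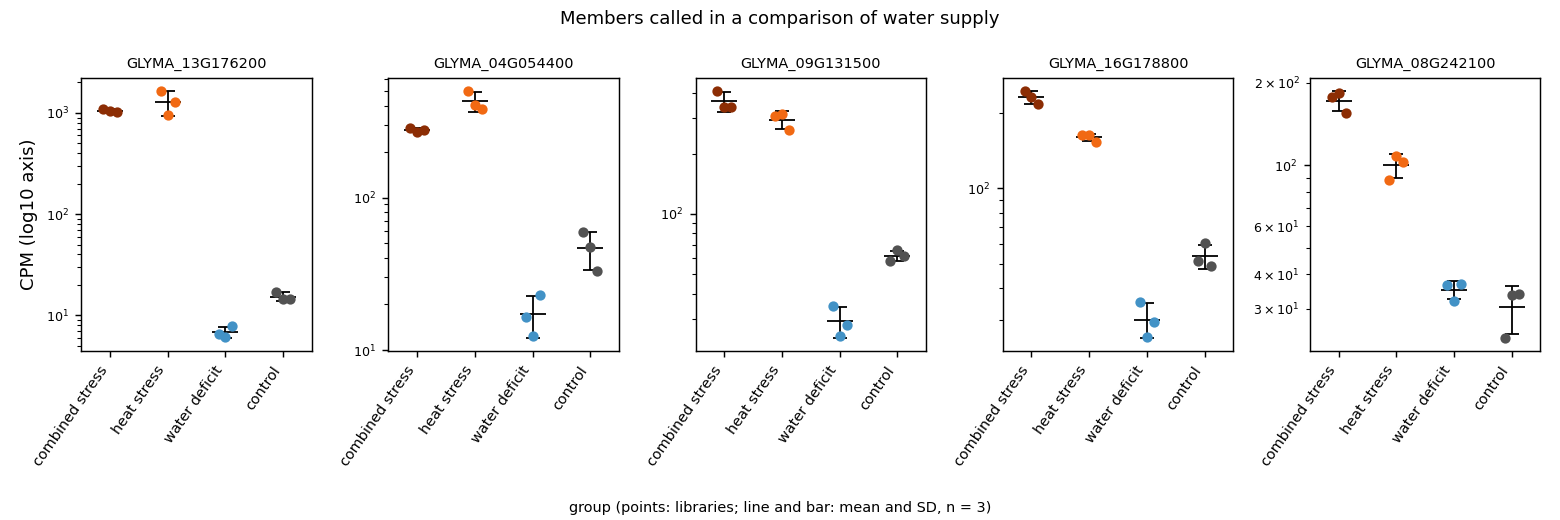
CPM per library on log10 axes for the 5 members called in a comparison of water supplies, by group (combined stress, heat stress, water deficit, control; points are libraries, lines and bars are the mean and SD, n = 3). The first 4 panels show water-deficit libraries below all control libraries, and the last, GLYMA_08G242100, shows combined-stress libraries at 155 to 184 CPM above heat-stress libraries at 88.4 to 108 CPM.

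The last description is of how the temperature difference of a member varied with the water supply, as the log2 change at low water minus that at full water. The rule used both temperature differences and capped combined stress against heat stress, so the values below are descriptions and nothing is read from the count. The edgeR fit put 2 of the 60 members past its threshold with a positive interaction, where 0.0284% of all genes were so. The median interaction was 0.48 over the members and -0.02 over all genes, and it was positive for 43 of the 60.

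GLYMA_09G131500 had 412, 341 and 341 CPM under combined stress and 310, 316 and 262 CPM under heat stress, so its mean was 12.5-fold above water deficit at low water and 4.78-fold above control at full water (interaction 1.29 on the log2 scale, SE 0.22). GLYMA_16G178800 had 245, 231 and 217 CPM under combined stress and 163, 162 and 153 CPM under heat stress, with folds of 7.69 at low water and 2.97 at full water (interaction 1.27, SE 0.21). In both, combined stress was the highest group and water deficit the lowest, with no overlap between any of the neighbouring groups. No member passed that threshold without control replicate 2 or 3, water deficit replicate 2 or 3, heat stress replicate 3 or combined stress replicate 1 or 2. In those fits 0% to 0.0327% of all genes passed it in either direction, so its loss was general.

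The IDs of 14 members stood within 10 steps of another member in the numbering along a chromosome, in which neighbouring gene IDs usually differ by 100. The rule made no use of position, and no such count was taken for other genes, so nothing is read from it. On chromosome 7, 5 of the 8 IDs from GLYMA_07G200000 to GLYMA_07G200700 were members, and on chromosome 13, 5 of the 9 IDs from GLYMA_13G175700 to GLYMA_13G176500 were. Smaller runs held GLYMA_08G068800 and GLYMA_08G069000 on chromosome 8 and GLYMA_14G099900 and GLYMA_14G100000 on chromosome 14. Chromosome 7 held 10 of the 60 members (16.7%), against 5.14% of the IDs with a heated mean of at least 5 CPM. Of these 10, 5 were those of its run. Chromosome 8 held 8 (13.3%, against 7.16%), whereas chromosomes 1 and 12 held 0.

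Within both runs, members stood beside IDs with no such gap. On chromosome 7, GLYMA_07G200400 ranged from 8.03 to 12.8 CPM in heated libraries and from 3.70 to 12.2 CPM in unheated libraries, GLYMA_07G200100 reached at most 1.61 CPM in heated libraries and 0.785 CPM in unheated libraries, and GLYMA_07G200600 had 0 counts throughout. On chromosome 13, GLYMA_13G176100 ranged from 56.9 to 66.4 CPM in heated libraries and from 50.9 to 68.0 CPM in unheated libraries, although it is numbered beside GLYMA_13G176200, the member with the highest heated FPKM. GLYMA_13G176400 likewise overlapped between temperatures, at 16.4 to 38.6 CPM in heated libraries and 26.6 to 35.4 CPM in unheated libraries. Of the other IDs numbered inside this run, GLYMA_13G175800 ranged from 9.65 to 18.3 CPM in heated libraries and from 6.36 to 11.5 CPM in unheated libraries, which overlapped, and GLYMA_13G175900 stayed at or below 0.230 CPM in heated libraries and 0.285 CPM in unheated libraries.

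The members within a run also differed among themselves. On chromosome 7, GLYMA_07G200200 had 663, 606 and 595 CPM under combined stress and 787, 582 and 602 CPM under heat stress, against 61.5, 48.2 and 57.0 CPM under water deficit and 106, 93.6 and 86.0 CPM in control. Its unheated pods thus held a measurable level, whereas GLYMA_07G200500 and GLYMA_07G200700 were at or near 0 there. GLYMA_07G200000 had 26.7, 25.7 and 23.9 CPM under combined stress and 56.8, 27.7 and 38.5 CPM under heat stress, against 0.901, 1.79 and 1.37 CPM under water deficit and 1.05, 0.562 and 0.461 CPM in control. It was the member of this run whose level was lower under combined stress than under heat stress in every library.

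On chromosome 13, GLYMA_13G176300 had 610, 590 and 532 CPM under combined stress and 825, 608 and 632 CPM under heat stress, against 64.6, 57.0 and 56.8 CPM under water deficit and 113, 106 and 88.0 CPM in control. Its values ran beside those of GLYMA_07G200200 on the other chromosome, a pair picked after its values were seen. On the FPKM scale they differed by at most 0.24 in log2 in any of the 12 libraries, the smallest such largest difference among 528 pairs of the 33 members with at least 1 FPKM in every library. Both were lower under water deficit than in control in every library without passing the adjusted test (edgeR adjusted p = 0.0646 for GLYMA_13G176300 and 0.0802 for GLYMA_07G200200). No sequences were compared, so whether the members of this pair are alike in sequence was not tested. How reads shared by near-identical copies were counted, and whether strand was used, is not given in the sources used here. Separate levels of any such copies are therefore uncertain.

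**Figure D5:**
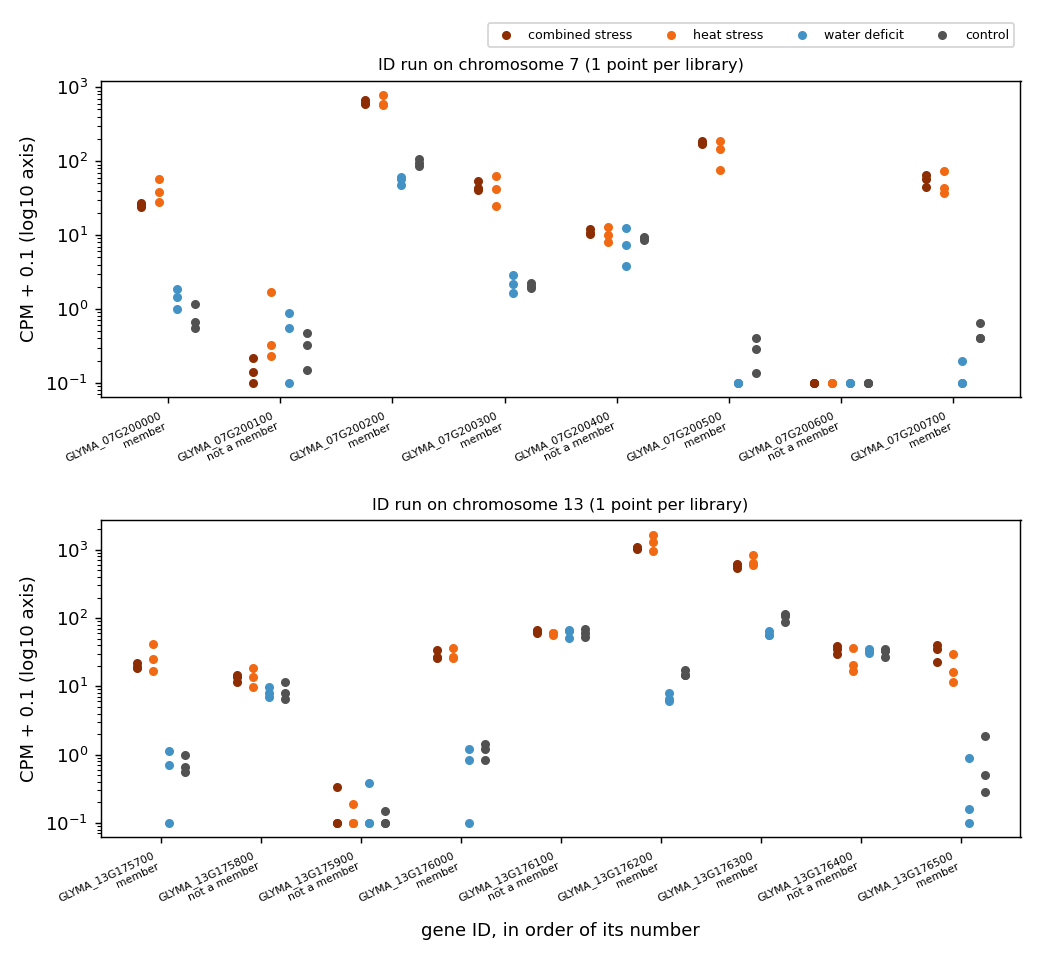
CPM + 0.1 per library on log10 axes for all IDs in the runs on chromosome 7 (top) and chromosome 13 (bottom), in the order of their numbers, with the 4 groups in colour. Members show heated points far above unheated ones, as the rule required, while neighbours such as GLYMA_07G200400 and GLYMA_13G176100 overlap between temperatures.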

How the data were processed

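RNA from pooled pods was sequenced as paired ends, and the sample titles gave each library's group and number. The authors deposited raw read counts per gene and FPKM values, 1 column per library in each table. The submitters' processing notes name HISAT2 2.2.1 without a role, and the counting tool, strand setting, annotation and genome build are not given in the sources used here. The ratio of deposited FPKM to deposited counts was not constant for a gene, and FPKM was used to compare levels between genes and in alternatives. The members, lists and tests were chosen with earlier results of these data known.

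CPM was the count over the column sum. Tests used edgeR 4.0.16 in R 4.3.3 (quasi-likelihood, robust, TMM factors from 0.951 to 1.06) on the 38737 genes kept by its filter for low counts, in a single fit of 4 group means over 12 libraries, with Benjamini-Hochberg adjustment over those genes and a call at an adjusted p under 0.05. Approximate SEs of log2 changes were obtained by dividing each change by the root of its F statistic. A median over members is described beside that over all genes, with no test. Replicates were pools of different plants within a single chamber. The scripts were tested on simulated data.

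Named genes were the 10 members with the widest gap between temperatures, the 8 with the highest heated CPM and up to 6 called per contrast. The 2 genes nearest to the rule's limit on each side were named as well. Others are said to be chosen for or after their values were seen, or by their number in a run. GLYMA_02G162800 and GLYMA_17G227600 were also named after their values were seen. Of 57147 IDs, 0 matched the gene table (assembly Glycine_max_v4.0). Planned gene lists, tissue markers and promoter motifs were therefore not run. Alternatives were other scalings and filters, the replicate number as a block, limma-voom (limma 3.58.1), DESeq2 1.42.0, limma on log2 of FPKM plus 1 or 0.1 where a gene's mean FPKM reached 1, other thresholds, and each library left out in turn. The counts of members without water deficit replicate 2 or heat stress replicate 1 in the comparisons of overlap, and the limit of 1 CPM on the unheated mean were added after the data were seen.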

Additional observations from a re-analysis of the deposited data

Results flagged for a closer look

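In GLYMA_09G131500 the fitted log2 change with temperature was larger by 1.29 at low water than at full water, and in GLYMA_16G178800 by 1.27. The rule that chose the members used both temperature differences, so this difference was not tested independently of the choice and is a description. In both members the 3 combined-stress libraries lay above the 3 heat-stress libraries, while the 3 water-deficit libraries lay below the 3 control libraries. Neither passed the threshold of the fit in 7 of the 12 fits with a library removed. In those 7 fits 0% to 0.0327% of all genes passed it in either direction.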

How the results depend on the processing

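None of the 5 members called for a water supply or the interaction changed direction in those contrasts under any alternative run. The number of members was 123 with a gap of 1.5 times and 35 with a gap of 3 times, ran from 59 to 71 with 1 library left out, and lay between 58 and 79 under the other scalings and limits. With FPKM in the rule, 79 genes met it, 50 of them among the 60.

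For water deficit minus control, 7 members were called by DESeq2 (0.318% of all genes) and 2 by limma-voom (0.0852%). Limma on FPKM plus 1 and plus 0.1 called 0 (0.0536% and 0.0441%). In these FPKM fits, 14 and 18 of the 59 members tested had an unadjusted p under 0.05, of which 13 and 17 were lower. For all genes that share was not taken in those fits. At an adjusted p under 0.01, edgeR called 0 members (0.00774%). With 1 library left out the count ran from 0 to 6 (0.00999% to 0.0999% of all genes) and the median from -0.65 to -0.35. For combined stress minus heat stress, 3 were called with library size alone (4.55% of all genes), 6 by DESeq2 (8.10%) and 6 by limma-voom (5.19%). Limma on FPKM plus 1 and plus 0.1 called 6 and 3 (5.86% and 5.17%). At an adjusted p under 0.01 the count was 0 (1.73%) and under 0.1 it was 5 (8.53%). With 1 library left out it ran from 0 to 5 (1.37% to 6.51%). The median of that contrast was 0.0808 with library size alone, where that of all genes was 0.0736. It was 0.143 on FPKM plus 1, where that of all genes was 0.0447, and ran from -0.0690 to 0.240 with 1 library left out. The members above heat stress in every library were 29 without heat stress replicate 1 (21.8% of all genes). For the interaction, a description here, limma on FPKM plus 1 and plus 0.1 called 0 (0.00945% and 0.00315% of all genes). At an adjusted p under 0.01, 0 were called (0% of all genes), and with 1 library left out from 0 to 3 (0% to 0.366%). Same-numbered libraries did not deviate together (r from -0.22 to 0.06). With the replicate block, 5 members were called for water deficit minus control (0.0878% of all genes). Of these, 3 were among the 4, and GLYMA_16G178800 was not called (edgeR adjusted p = 0.0527). The block gave 1 call for combined stress minus heat stress (4.45%) and 2 for the interaction (0.0929%). The cause of these changes was not tested, and depth limits the 8 members at or near 0 in unheated pods.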

Other observations

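GLYMA_20G204500, a member chosen for its values, varied widely between libraries of the same condition except under heat stress, where its coefficient of variation was 0.109. It had 89.9, 58.2 and 133 CPM under combined stress and 64.2, 77.4 and 78.7 CPM under heat stress, against 11.7, 12.1 and 1.26 CPM under water deficit and 0, 16.5 and 1.34 CPM in control. It was the only member with 0 counts in a control library whose other libraries of that group both held at least 10 counts.

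The 8 members with 0 counts in water deficit replicate 2 and at least 10 counts in both other libraries of that group included GLYMA_14G099900, with 55, 0 and 42 counts in the 3 water-deficit libraries, against 278, 116 and 95 in control, and GLYMA_13G176000, with 22, 0 and 13 counts, against 30, 26 and 16 in control. In heated pods GLYMA_14G099900 had 38.1, 42.9 and 39.5 CPM under combined stress and 89.5, 70.8 and 50.0 CPM under heat stress. The part of that library's zeros in these values was not tested.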
